A study of Homo sapiens with 6 samples.

Results

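The genes described here are the G1 cyclins, their kinases and the inhibitors of those kinases in PA1, an established line of human ovarian teratocarcinoma, in which SOX2, a transcription factor of pluripotent cells, was silenced. The members were 10 genes taken by name from the deposited count table: the D-type cyclins CCND1, CCND2 and CCND3, the kinases CDK4 and CDK6, the inhibitors CDKN1B, CDKN2A, CDKN2B and CDKN2C, and the retinoblastoma gene RB1. They are 10 of the 59653 gene symbols in that table, and 9 of the 10 passed the filter on low counts that left 17592 genes for testing; CDKN2B did not. The study had 6 mRNA sequencing libraries, 3 from cells transfected with a negative control small interfering RNA (siRNA) and 3 from cells transfected with siRNA against SOX2, where the design text names 2 SOX2 siRNAs without saying whether they were combined. Both groups are wild type by label, were transfected in adherent culture, and after 24 h were moved to poly-HEMA-coated plates, on which cells cannot attach, for 72 h of three-dimensional growth before RNA was taken. The labels do not say whether the libraries came from separate cultures, so p-values measure the spread between these libraries, which may be technical. All values come from 1 cell line. The libraries of cells given SOX2 siRNA are called knockdown libraries here.

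Cells decide in G1 whether to start another division. D-type cyclins rise with growth signals and bind CDK4 or CDK6; the active kinases phosphorylate the retinoblastoma protein, which then releases E2F transcription factors and with them the genes of DNA replication. INK4 proteins (p16, p15, p18 and p19, from CDKN2A, CDKN2B, CDKN2C and CDKN2D) bind CDK4 and CDK6 and block cyclin binding, whereas KIP proteins such as p27, from CDKN1B, mainly hold back cyclin E and CDK2. Pluripotent cells are known for a short G1 phase and high cyclin E and CDK2 activity. Much of this pathway is set by phosphorylation and protein turnover, which transcript counts do not show.

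Promoter windows were sought for the 5 members that rose or fell after SOX2 siRNA by the test described below. RefSeq windows (GRCh38.p14) were found for CCND3, CDK4, CDK6 and CDKN1B, which rose, and not for CCND1, which fell. The 250 bases before each start site were searched on both strands in the windows found. The 3 shown here hold letters that match either the SOX core, ACAAAG or ACAATG, or the E-box CACGTG, the element that MYC family proteins bind; the E-box was added to the search after the sequences had been read. They are given 5′ to 3′ on the gene's strand, with the matches in capitals.

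CCND3, chr6:42048689-42048938, minus strand, the farthest upstream of 3 starts, ACAAAG on the opposite strand in capitals: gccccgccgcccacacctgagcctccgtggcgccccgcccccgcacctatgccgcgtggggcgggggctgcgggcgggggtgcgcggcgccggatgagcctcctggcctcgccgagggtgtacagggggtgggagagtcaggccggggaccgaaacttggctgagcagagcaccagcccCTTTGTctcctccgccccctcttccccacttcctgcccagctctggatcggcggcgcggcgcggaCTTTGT
CDK6, chr7:92833960-92834209, minus strand, the downstream one of 2 starts, ACAATG in capitals: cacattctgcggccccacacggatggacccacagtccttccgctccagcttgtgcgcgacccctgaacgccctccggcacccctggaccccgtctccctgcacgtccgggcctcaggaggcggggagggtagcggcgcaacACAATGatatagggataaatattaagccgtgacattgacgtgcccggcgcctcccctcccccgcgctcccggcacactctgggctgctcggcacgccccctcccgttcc
CDK4, chr12:57752311-57752560, minus strand, E-box in capitals: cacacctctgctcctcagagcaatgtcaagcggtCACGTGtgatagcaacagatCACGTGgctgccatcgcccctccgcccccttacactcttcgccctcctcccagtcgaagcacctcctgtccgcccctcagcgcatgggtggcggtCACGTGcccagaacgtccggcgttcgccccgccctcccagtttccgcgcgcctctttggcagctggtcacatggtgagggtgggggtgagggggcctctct

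The CCND3 window held 2 matches to ACAAAG, beginning 71 and 6 bases before the start site, and the CDK6 window held 1 match to ACAATG, beginning 109 bases before it. The other 5 of the 7 windows searched, which are the remaining starts of CCND3 and CDK6 and those of CDK4 and CDKN1B, held neither SOX core. Among all 35116 RefSeq windows of the same length, 13.7% hold ACAAAG and 9.29% hold ACAATG; these shares are per window and per motif, whereas the windows shown were chosen among several for their matches. The CDK4 window held 3 E-boxes, beginning 216, 196 and 101 bases before the start site, and 6.34% of all windows hold at least 1. None of these matches overlapped another motif searched. The GC box GGGCGG occurred in at least 1 window of each of the 4 genes and in 42.6% of all windows, and CCAAT in windows of CCND3 and CDKN1B and in 32.0% of all. No window of the 4 genes held the letters of an E2F site (TTTCGCGC, TTTGGCGC, TTTCCCGC or TTTGCCGC, 2.79% of all windows), TATAAA (10.7%) or the CRE TGACGTCA (1.65%). A match or its absence describes letters in these windows only.

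Library depth ranged from 25152313 to 32753184 counts, and a floor of 3 counts, used as the detection limit and covering counting error only, corresponded to 0.0909 to 0.120 CPM, the library-size-normalised count. SOX2, the targeted gene, was at 245, 265 and 256 CPM in the control libraries and at 51.8, 54.9 and 50.6 CPM in the knockdown libraries. Its groups lay far apart, with a log2 fold change of -2.28 (SE 0.044; adjusted p = 5.97e-16 by edgeR's quasi-likelihood test with Benjamini-Hochberg adjustment). Of 8 markers of the embryonal state of PA1 cells, 7 were tested, of which 3 were called higher and 1 lower (edgeR adjusted p under 0.05). They were 42.9% and 14.3% of those tested, against 14.8% and 13.4% of all tested genes. POU5F1, LIN28A and LIN28B had log2 fold changes of 0.17, 0.70 and 0.59, and PODXL of -0.97, its mean going from 1316 to 671 CPM (edgeR adjusted p at most 0.00798). SALL4 was not called (151 and 144 CPM), DPPA4 and L1TD1 were below 4 CPM, and TDGF1 had at most 3 counts in any library. Of 14 markers of other lineages or cell types, 11 were tested, of which 5 were called higher and 2 lower. These were 45.5% and 18.2% of those tested, against 14.8% and 13.4% of all tested genes. SOX1 had 0 counts in every library and SOX17 and PTPRC at most 3. EOMES, MIXL1 and CER1, genes of early mesendoderm, had log2 fold changes of 2.92, 2.26 and 2.51 and PDGFRB, a mesenchymal receptor, of 1.89 (edgeR adjusted p at most 1.99e-09), and COL1A1 of 0.34 (0.0189). The endothelial genes PECAM1 and CDH5 had -0.55 and -0.71 (edgeR adjusted p = 2.69e-08 and 5.49e-05), and GATA6, PAX6, COL1A2 and CD68 were not called. The summed level of these 14 genes ran from 389 to 441 CPM in control libraries and from 581 to 631 CPM in knockdown libraries, and its part in the results that follow was not tested. COL1A1 made up most of this sum, at means of 282 CPM in control and 358 CPM in knockdown libraries. PDGFRB went from 28.6 to 106 CPM, while PECAM1 went from 64.2 to 43.7 CPM. In bulk RNA, a change in the number of cells that express a gene and a change in RNA per cell cannot be told apart.

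SOX2 siRNA went with changes in 5 of the 9 tested members, a decrease of CCND1 and increases of CCND3, CDK4, CDK6 and CDKN1B. Here called means an edgeR adjusted p under 0.05, the adjustment running over all tested genes. By that rule 28.2% of all tested genes were called, 14.8% as higher and 13.4% as lower, against 4 members higher and 1 lower. CCND3 had the largest change, 60.4%, and the other 4 changed by 10.8% to 18.7%. The median log2 fold change of the 9 tested members was 0.096, and that of all tested genes -0.00085; the median size regardless of sign was 0.15 in both. Control and knockdown libraries did not overlap for 6 of the 9, against 41.8% of all tested genes.

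**Figure D1:**
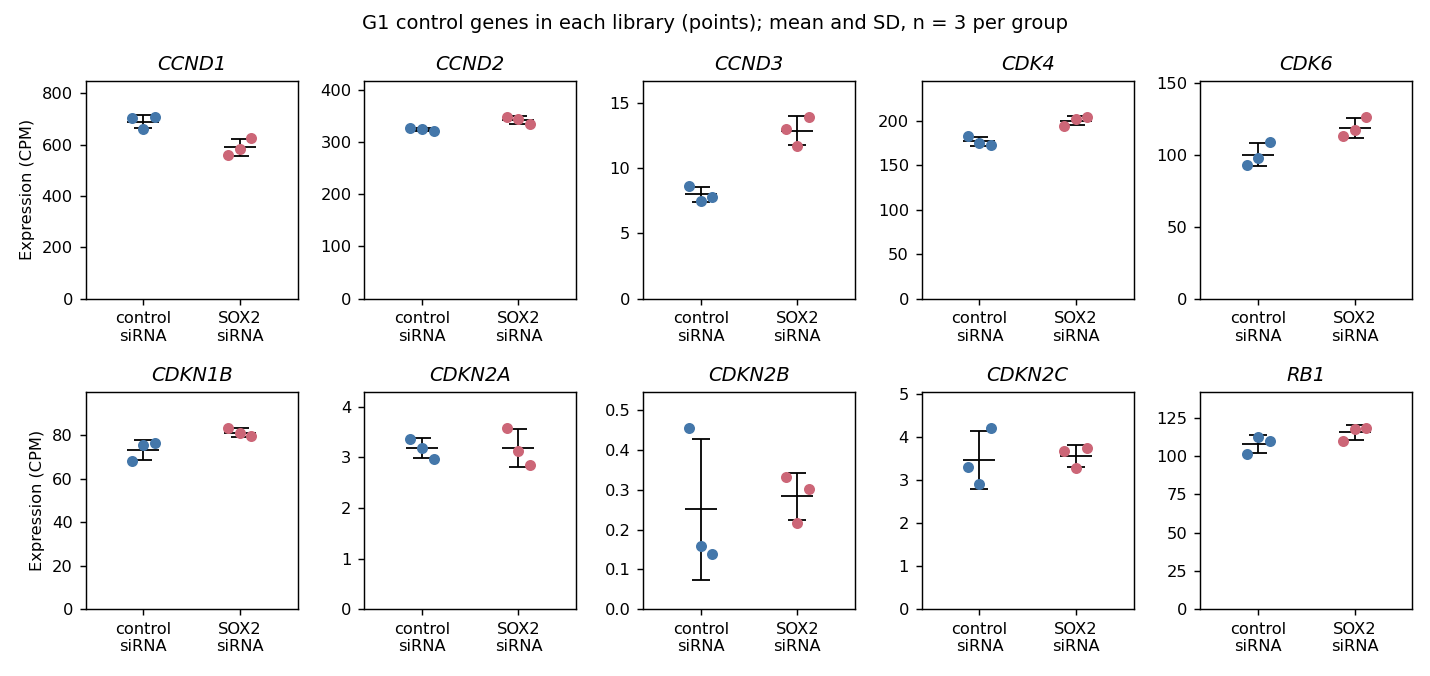
Expression in CPM (vertical axis, from 0) of the 10 members in the 3 control (blue) and 3 SOX2 siRNA (red) libraries; points are libraries, bars the mean and SD. CCND1 is lower and CCND3, CDK4, CDK6 and CDKN1B are higher in all 3 knockdown libraries, while the points of CDKN2A, CDKN2B, CDKN2C and RB1 overlap. CCND2 is also higher in all 3 knockdown libraries, but its difference missed the threshold.

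CCND1, encoding cyclin D1 (chromosome 11, 69641087 to 69654474, plus strand; GENCODE 29, GRCh38), was the most abundant member per kilobase of exon. It was at 703, 660 and 706 CPM in control replicates 1 to 3 and at 558, 583 and 625 CPM in SOX2 siRNA replicates 1 to 3. Every knockdown library lay below every control library, with the nearest pair separated by 625 and 660 CPM. CCND1 fell by 14.6%, the means being 690 ± 26.1 and 589 ± 33.9 CPM (SD, n = 3), for a log2 fold change of -0.23 (SE 0.042; edgeR adjusted p = 6.54e-04).

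CCND2, encoding cyclin D2 (chromosome 12, 4273772 to 4305350, plus strand), was slightly higher in the knockdown libraries. Control libraries were at 327, 324 and 321 CPM and knockdown libraries at 347, 345 and 334 CPM. The groups did not overlap, yet the difference missed the threshold (log2 fold change 0.079, 95% interval 0.0096 to 0.15; edgeR adjusted p = 0.0859), so a rise of CCND2 was not called.

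CCND3, encoding cyclin D3 (chromosome 6, 41934933 to 42050357, minus strand), was the scarcest D-type cyclin per kilobase and had the largest fold change of the 9 tested members. It was at 8.67, 7.50 and 7.78 CPM in control libraries and at 12.99, 11.7 and 13.9 CPM in knockdown libraries, from 188 to 286 and from 378 to 415 counts. The lowest knockdown library stood well above the highest control library. CCND3 rose by 60.4%, the means being 7.98 ± 0.606 and 12.9 ± 1.11 CPM (SD, n = 3), for a log2 fold change of 0.68 (95% interval 0.49 to 0.87; edgeR adjusted p = 1.58e-05). GENCODE 29 lists 18 start positions for CCND3, and gene counts do not tell which of them gave the reads.

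Because CCND1 makes up most D-type cyclin RNA, the 3 genes were also compared as shares within each library, after dividing counts by the length of all annotated exons. CCND1 held 75.5%, 74.6% and 76.0% of D-type cyclin counts per kilobase in control libraries and 69.5%, 70.6% and 72.5% in knockdown libraries. The share of CCND2 was 23.9% ± 0.742 in control libraries and 27.8% ± 1.54 in knockdown libraries, and that of CCND3 was 0.726% ± 0.0427 and 1.29% ± 0.0941 (SD, n = 3). None of these 3 shares overlapped between the groups. Each gave an exact two-sided permutation p of 0.1, the smallest that 3 against 3 libraries allow, or 0.133 after Benjamini-Hochberg adjustment over the 8 within-library quantities compared. The 3 shares add up to the whole in every library, so they are not independent results. Those of CCND2 and CCND3 were added to the planned share of CCND1. Summed over the 3 genes, D-type cyclins stood at 189 ± 5.42 CPM per kilobase in control libraries and 172 ± 6.17 in knockdown libraries (SD, n = 3; exact permutation p = 0.1, the smallest possible), without overlap.

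CDK4, encoding the kinase partner of D-type cyclins (chromosome 12, 57747727 to 57756013, minus strand), was at 182, 174 and 173 CPM in control libraries and at 194, 202 and 204 CPM in knockdown libraries. All 3 knockdown libraries were above all 3 control libraries. CDK4 rose by 13.2% (log2 fold change 0.18, SE 0.037; edgeR adjusted p = 0.00135). TSPAN31, on the opposite strand, shares 43.2% of CDK4's annotated exon bases and was itself higher, at means of 21.7 ± 0.569 and 25.5 ± 1.08 CPM (SD, n = 3), with a log2 fold change of 0.23 (edgeR adjusted p = 0.00611). Whether counting used strand is not given in the sources used here, so reads of both genes may be mixed.

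CDK6, the second D-cyclin kinase (chromosome 7, 92604921 to 92836594, minus strand), was at 93.1, 98.0 and 109 CPM in control libraries and at 113, 117 and 126 CPM in knockdown libraries. The groups were separated narrowly, by 109 against 113 CPM, and the control libraries had an SD of 8.13 CPM. CDK6 rose by 18.7% (log2 fold change 0.25, SE 0.059; edgeR adjusted p = 0.00878), a call that was lost without control replicate 2 (log2 fold change 0.23, adjusted p = 0.0640). The CDK6 share of the summed counts per kilobase of both kinases was 12.8% ± 1.18 in control libraries and 13.3% ± 0.427 in knockdown libraries (SD, n = 3), and the groups overlapped (exact permutation p = 0.5; 0.5 after adjustment).

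The balance of cyclin to kinase transcripts differed between the groups in every library. Summed CDK4 and CDK6 stood at 63.9 ± 1.13 CPM per kilobase in control libraries and 72.8 ± 2.15 in knockdown libraries (SD, n = 3; exact permutation p = 0.1, the smallest possible). The ratio of D-type cyclin to CDK4 plus CDK6 counts per kilobase was 2.96, 2.90 and 3.03 in control libraries and 2.36, 2.33 and 2.39 in knockdown libraries. Its group means lay 0.603 apart, against SDs of 0.0629 and 0.0344 (n = 3, exact permutation p = 0.1, 0.133 after adjustment). The summed levels and this ratio were chosen after the values of the single genes had been seen. They rest on annotated exon lengths, which need not be those of the transcripts in these cells; with raw counts the difference in the ratio was -0.731.

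**Figure D2:**
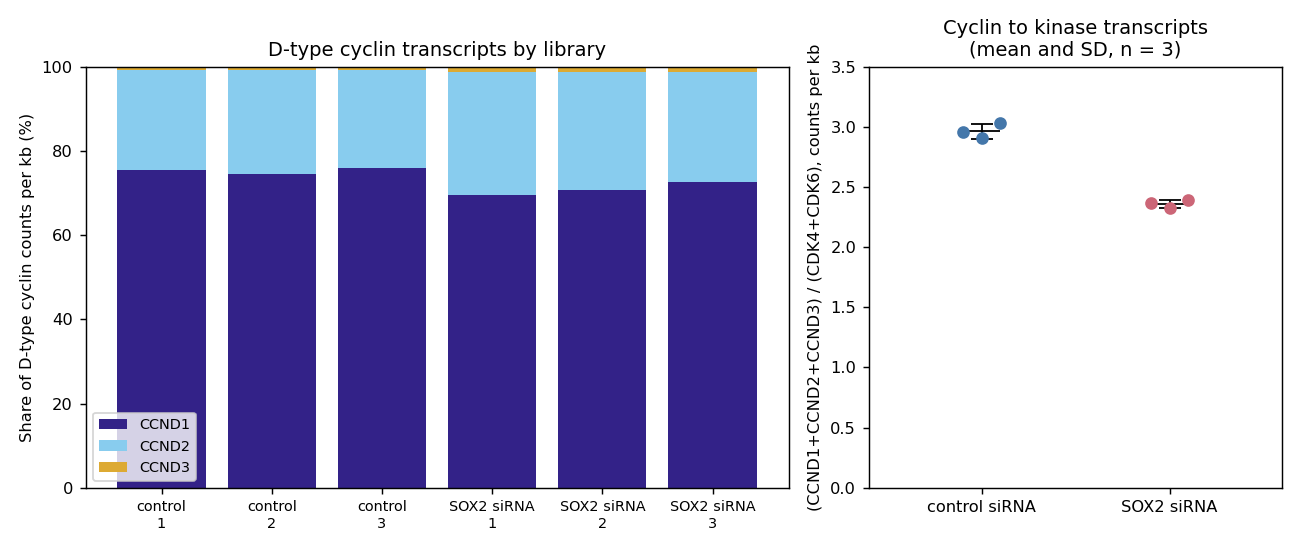
Left, the share of CCND1, CCND2 and CCND3 in D-type cyclin counts per kilobase (vertical axis, percent) in each of the 6 libraries; right, the ratio of summed D-type cyclin to summed CDK4 and CDK6 counts per kilobase, with points for libraries and bars for mean and SD (n = 3). CCND1 takes 74.6% to 76.0% in control libraries and 69.5% to 72.5% in knockdown libraries, and the ratio goes from 2.96 to 2.36.

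CDKN1B, encoding the KIP inhibitor p27 (chromosome 12, 12715058 to 12722371, plus strand), was at 68.0, 75.6 and 76.4 CPM in control libraries and at 83.2, 80.8 and 79.5 CPM in knockdown libraries. All knockdown libraries were higher, but control replicate 1 stood below the other controls. CDKN1B rose by 10.8% (log2 fold change 0.15, SE 0.047; edgeR adjusted p = 0.0266). The call was lost without control replicate 1 (log2 fold change 0.095, adjusted p = 0.121), without SOX2 siRNA replicate 1 (0.13, adjusted p = 0.0792) or replicate 2 (0.15, adjusted p = 0.0817), and with upper-quartile scaling (0.13, adjusted p = 0.0519).

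The INK4 genes were scarce in both groups. CDKN2A (chromosome 9, 21967753 to 21995301, minus strand), whose alternative first exons give p16 and the MDM2-binding protein p14ARF, was at 3.36, 3.19 and 2.97 CPM in control libraries and at 3.58, 3.12 and 2.85 CPM in knockdown libraries. The groups overlapped fully, and the log2 fold change was 0.0011 with a 95% interval of -0.31 to 0.31 (edgeR adjusted p = 0.997). Gene counts do not separate the p16 and p14ARF transcripts.

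CDKN2C, encoding p18 (chromosome 1, 50960745 to 50974633, plus strand), was at 3.30, 2.91 and 4.22 CPM in control libraries and at 3.68, 3.28 and 3.75 CPM in knockdown libraries. The SOX2 siRNA values lay inside the control range (log2 fold change 0.033, 95% interval -0.29 to 0.36; edgeR adjusted p = 0.908). At these depths changes of either gene smaller than those intervals were not detectable.

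CDKN2B, encoding p15 (chromosome 9, 22002903 to 22009363, minus strand, 7601 bases upstream of the annotated 5′ boundary of CDKN2A), had 15, 4 and 4 counts in control libraries and 10, 7 and 9 counts in knockdown libraries. Counts this low, beside a floor of 3, were below the filter, and no fold change is given. The antisense RNA gene of the locus, CDKN2B-AS1, which has been linked to its Polycomb silencing, had 2 to 8 counts per library.

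Measured against their target kinases, the INK4 genes were a small quantity. Summed CDKN2A, CDKN2B, CDKN2C and CDKN2D amounted to 4.68% ± 0.430 of summed CDK4 and CDK6 counts per kilobase in control libraries and 4.47% ± 0.588 in knockdown libraries (SD, n = 3). The groups overlapped (exact permutation p = 0.5), and the sign of the difference turned without control replicate 3 or SOX2 siRNA replicate 2, to 0.0263 and 0.0325 percentage points.

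RB1, encoding the retinoblastoma protein (chromosome 13, 48303726 to 48599436, plus strand), was at 101, 113 and 110.0 CPM in control libraries and at 110 (109.9), 118 and 118 CPM in knockdown libraries. SOX2 siRNA replicate 1 fell within the control range. The log2 fold change was 0.096 (95% interval 3.71e-04 to 0.19; edgeR adjusted p = 0.131), short of the threshold.

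Per kilobase of annotated exon, the order of the members was the same in both groups. In control libraries it ran from CCND1 (143 CPM per kilobase) through CDK4 (55.7), CCND2 (45.2), CDKN1B (26.1), RB1 (16.7), CDK6 (8.16), CCND3 (1.38), CDKN2C (1.05) and CDKN2A (0.734) to CDKN2B (0.0618). No neighbours in this order overlapped between libraries in either group. The closest were CCND3 and CDKN2C in control, where the lowest CCND3 library was at 1.29 and the highest CDKN2C library at 1.27 CPM per kilobase. After SOX2 siRNA their means were 2.22 ± 0.191 and 1.08 ± 0.0764 (SD, n = 3). The order rests on annotated exon lengths and is not that of CPM, where CCND2 (control mean 324) stood above CDK4 (177).

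Of 8 family counterparts of the members, CDKN1A, CCNE1, CCNE2, CDK2 and RBL2 rose, where 14.8% of all tested genes were called higher. All 8 also belong to lists described further on, where they are counted again. CDKN1A, encoding the CIP/KIP inhibitor p21, had means of 14.1 ± 0.344 and 24.8 ± 2.80 CPM (SD, n = 3) and a log2 fold change of 0.81 (SE 0.077; edgeR adjusted p = 4.74e-07). CCNE1, encoding cyclin E1, had means of 19.5 ± 1.34 and 27.3 ± 1.86 CPM (SD, n = 3) and a log2 fold change of 0.48 (edgeR adjusted p = 2.88e-05). Its kinase CDK2 was at 53.1, 51.2 and 52.3 CPM in control libraries and at 68.8, 69.6 and 70.5 CPM in knockdown libraries, with little spread in either group (log2 fold change 0.41, SE 0.041; edgeR adjusted p = 6.01e-07). The inhibitors CDKN2D (p19) and CDKN1C (p57) were below 3 CPM and did not pass the test (log2 fold changes 0.25 and 0.45; edgeR adjusted p = 0.376 and 0.149). Of the pocket proteins related to RB1, RBL2 (p130) had a log2 fold change of 0.17 (edgeR adjusted p = 0.0122) and RBL1 (p107) of 0.019 (adjusted p = 0.807, 95% interval -0.076 to 0.11). The call of RBL2 was lost without control replicate 1, control replicate 3 or SOX2 siRNA replicate 1 (adjusted p = 0.0543, 0.0566 and 0.0562).

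**Figure D3:**
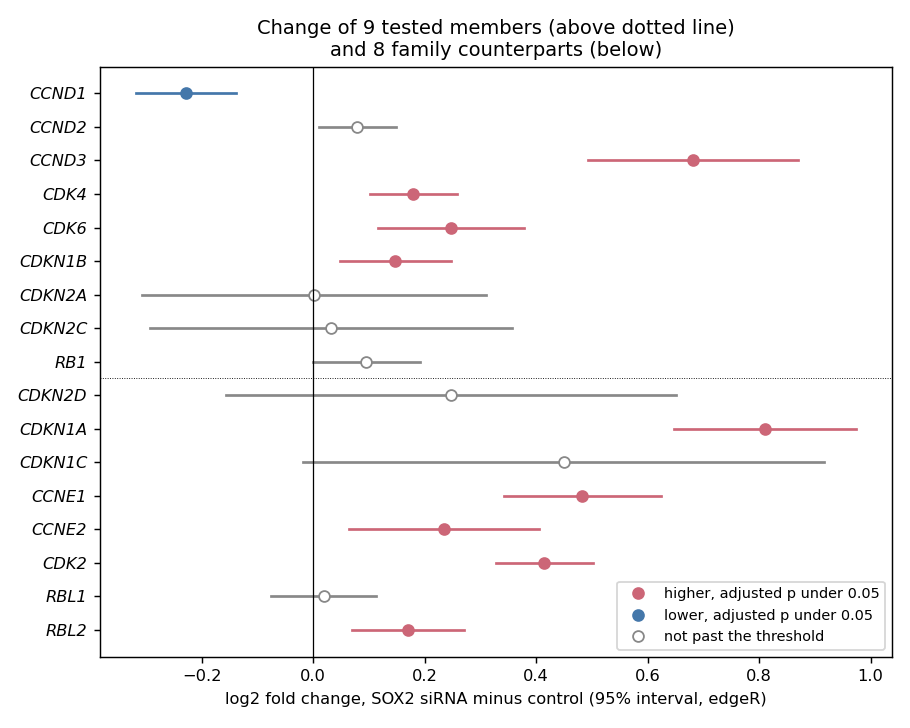
Log2 fold change of SOX2 siRNA against control (horizontal axis) with its 95% interval for the 9 tested members, above the dotted line, and 8 family counterparts, below it; filled points passed an adjusted p of 0.05. CCND1 at -0.23 is the only filled point left of 0, and CDKN1A (0.81) and CCND3 (0.68) lie farthest right.

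Among other cyclins, kinases and inhibitors of the G1 to S step, 6 of 12 tested genes (50%) rose and none fell, against 14.8% of all tested genes called higher. The median log2 fold change of the list was 0.24. The 6 that rose were CDKN1A, CDK2, CCNE1 and MNAT1 (0.18; edgeR adjusted p = 0.0125), an assembly factor of the kinase that activates CDKs, together with CCNE2 (0.24; adjusted p = 0.0373) and CCNA2 (0.12; adjusted p = 0.0339). The count was 3 without SOX2 siRNA replicate 3, where MNAT1 (0.13, edgeR adjusted p = 0.0746) and CCNE2 (0.15, adjusted p = 0.205) lost their calls. Without that library 4294 of 18056 tested genes were called in either direction, and 2205 were called higher. CCNE2 (cyclin E2) lost its call in 7 of 15 alternative settings, among them DESeq2 (adjusted p = 0.107) and limma-voom (0.0636). CDK3 had the largest estimate of the list, 1.16, but its interval ran from 0.20 to 2.12 (edgeR adjusted p = 0.0816).

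Another list held pocket proteins, E2F factors, their DP partners and the MuvB subunits that join them in the DREAM complex. In it, 4 of 17 rose and 1 fell (median log2 fold change 0.032). That is 29.4% called, near the 28.2% of all tested genes. Split by direction, 23.5% rose and 5.88% fell, against 14.8% and 13.4% of all tested genes. The activator genes E2F1 and E2F2 had log2 fold changes of 0.25 and 0.28 (SE 0.052 and 0.072; edgeR adjusted p = 0.00157 and 0.00739). LIN52, a MuvB subunit, rose by 0.24 on the log2 scale and RBL2 by 0.17. TFDP2, a DP partner of E2F, was the gene that fell, with means of 162 ± 3.14 and 140 ± 1.98 CPM (SD, n = 3) and a log2 fold change of -0.20 (edgeR adjusted p = 2.91e-04).

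Of 24 tested replication genes known as E2F targets, 6 fell and 1 rose, or 29.2% called against 28.2% of all tested genes. By direction, 25% fell and 4.17% rose, against 13.4% and 14.8% of all tested genes. The median log2 fold change was -0.057, against -0.00085 for all tested genes. ORC1, of the origin recognition complex, GINS4, of the replicative helicase, and POLA1, the catalytic subunit of DNA polymerase alpha, had log2 fold changes of -0.24, -0.20 and -0.18 (edgeR adjusted p = 8.30e-04, 0.00308 and 0.00478). CDC6 and CDT1, which load the helicase, had log2 fold changes of -0.16 and -0.12 (edgeR adjusted p = 0.00911 and 0.0477, the latter close to the threshold). The gene that rose was TK1 (0.16; adjusted p = 0.0426), and PCNA, the replication clamp, had a log2 fold change of -0.042 (adjusted p = 0.545).

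Of 19 tested markers of the G2 and M phases, 9 (47.4%) rose and none fell, against 14.8% of all tested genes called higher, with a median log2 fold change of 0.11 and a largest one of 0.23, that of ANLN, a cytokinesis scaffold (edgeR adjusted p = 4.88e-04). TOP2A, BIRC5 and PLK1 had log2 fold changes of 0.13, 0.16 and 0.15 (edgeR adjusted p = 0.00553, 0.0057 and 0.00784). Without SOX2 siRNA replicate 2, TOP2A (adjusted p = 0.0539) and BIRC5 (0.0559) lost their calls. The count fell to 3 without that library and to 4 without SOX2 siRNA replicate 3. In those settings 3760 of 17987 and 4294 of 18056 tested genes were called in either direction, a share that the list no longer exceeded. Called higher were 1954 and 2205 of all tested genes. Without any other single library the count was 6 to 11. The summed level of the list ran from 4134 to 4273 CPM in control libraries and from 4353 to 4595 CPM in knockdown libraries, and its part in the rise of CDK4, CDK6 and CDK2 was not tested.

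Of 27 tested genes known to regulate the members, 4 rose and 1 fell, which is 18.5% called, fewer than the 28.2% over all tested genes. The shares that rose and fell were 14.8% and 3.7%, against 14.8% and 13.4% of all tested genes. MYCN and MYC, whose proteins activate CDK4 and CCND2, had log2 fold changes of 0.28 and 0.61 (SE 0.047 and 0.16; edgeR adjusted p = 2.19e-04 and 0.0119). SUZ12 and EZH2, subunits of the Polycomb complex that silences the CDKN2A and CDKN2B locus, moved apart, at -0.18 and 0.13 (edgeR adjusted p = 0.0041 and 0.0172). MEN1, whose protein menin promotes CDKN1B and CDKN2C transcription, had a log2 fold change of 0.16 (edgeR adjusted p = 0.0154). SKP2, which marks p27 for destruction and was chosen after its values were seen, did not pass the test (0.082, 95% interval -0.0059 to 0.17; edgeR adjusted p = 0.162). The count was 3 without control replicate 2, where MYC (adjusted p = 0.0518) and MEN1 (0.0719) lost their calls. Of all tested genes, 3824 of 18012 were called in either direction in that setting. MYC also lost its call without SOX2 siRNA replicate 1 (edgeR adjusted p = 0.0501).

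**Figure D4:**
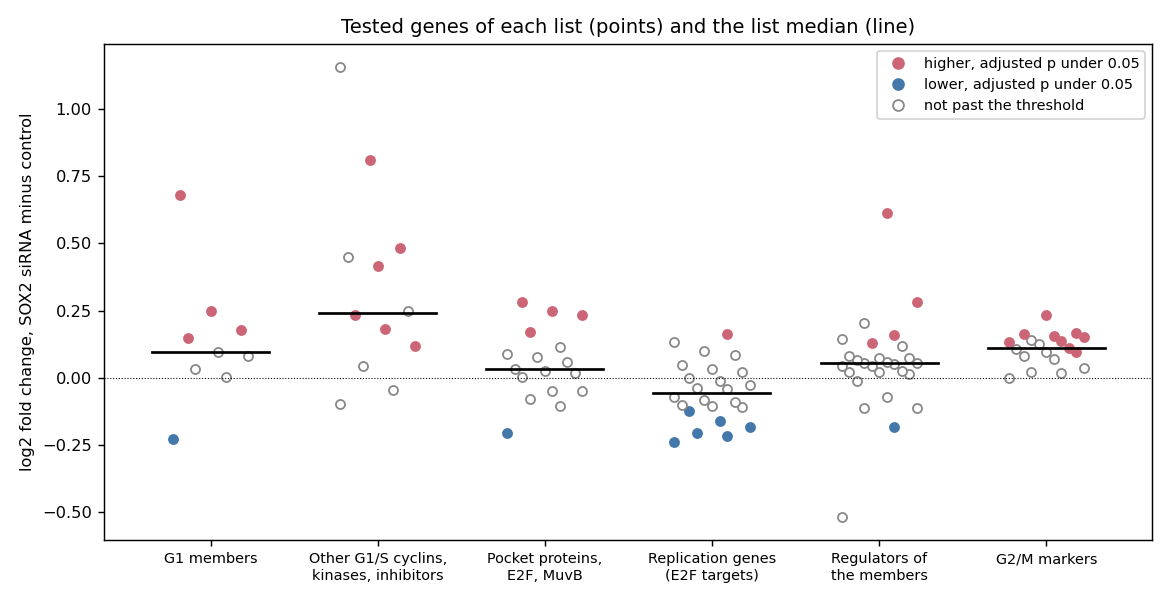
Log2 fold changes (vertical axis) of the tested genes of the G1 members and 5 other lists, each point a gene and each line the list median; red and blue points passed an adjusted p of 0.05 upward and downward. Filled points of the replication list lie mostly below 0 (6 of 7), and those of the G2/M list all above it (9 of 9).

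For each called member, the genes most like it were sought by the Pearson correlation of log2 CPM over the 6 libraries, among 12119 well-expressed genes. The 3 closest to CCND1 were TLCD3A, SNHG5 and HEG1 (r = 0.997, 0.992 and 0.991), and the 3 closest to CCND3 were FAM189B, CAPNS1 and MIA (0.998, 0.997 and 0.996). Those of CDK4 were KANK2, ASF1B and GABPB1-IT1, those of CDK6 FOXN2, GNG10 and TIFA, and those of CDKN1B ANKIB1, PGAP1 and PGM2L1, with r from 0.991 to 0.998. These values describe 6 libraries that share the 2 groups compared, and they carry no p.

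Exon overlap limits some members. LTO1 shares 10.3% of the exon bases of CCND1 on the opposite strand and averaged 13.5 ± 0.400 CPM in the controls and 13.9 ± 0.363 CPM in knockdown libraries (SD, n = 3; edgeR adjusted p = 0.785), far below CCND1 itself. AC008012.1 shares 13.8% of the exon bases of CCND2 on the same strand, so their reads cannot be told apart there. CDKN2B-AS1 shares 7.88% of those of CDKN2A on the opposite strand. CDKN1B, CDKN2B, CDKN2C and RB1 overlap no other annotated exon.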

How the data were processed

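Polyadenylated RNA of 6 PA1 libraries, 3 per group, was sequenced; per the labels' protocols RNA was isolated with Trizol and libraries came from a KAPA mRNA HyperPrep kit. The deposited file holds raw counts per gene symbol, whole numbers, 1 column per library. The submitters' processing notes name bcl2fastq 2.20.0, STAR 2.7.3a, Salmon 0.14.1, DESeq2 1.28.1 and the build GRCh38.p13, without roles; strand use and annotation are not given in the sources used here.

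Columns were matched to libraries by the identifier in each description and groups by title. In R 4.3.3, edgeR 4.0.16 was used on all 6 libraries: filterByExpr with a minimum count of 10, TMM scaling (factors 0.991 to 1.01), a robust quasi-likelihood F-test on group across all genes, and Benjamini-Hochberg adjustment with a threshold of 0.05. A standard error is the absolute log2 fold change divided by the square root of F. Shares and ratios within libraries were tested by exact permutation, two-sided. Alternatives used DESeq2 1.42.0, limma 3.58.1, other scalings and filters, a replicate block, and each library left out in turn. Figures and summaries used Python 3.11.15, scipy 1.17.1 and matplotlib 3.10.9. The procedure was tested on simulated counts.

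GENCODE 29 gave exon lengths, overlaps and positions, and RefSeq (GRCh38.p14) the promoter windows. Members and lists were chosen with earlier results of these data known. Genes named are the 10 members, SOX2, 8 family counterparts, in each list the 4 called genes of smallest p at most, and for each called member the 3 most similar genes of average log2 CPM at least 2; other genes named, CCNA2, CDC6, CDT1, CDK3, EZH2, PCNA, SKP2, TK1 and the markers or overlapping genes, were picked after their values were seen or for their position. A gene that this rule names is not reported here.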

Additional observations from a re-analysis of the deposited data

How the results depend on the processing

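CCND1, CCND3 and CDK4 kept their direction and their call under all 15 alternatives, with log2 fold changes of -0.28 to -0.20, 0.62 to 0.75 and 0.16 to 0.20. The members called higher numbered 3 with upper-quartile scaling and 3 to 4 when each library in turn was left out, and the 1 called lower stayed at 1. Calls over all genes ranged from 3760 to 5212, and from 3760 to 4863 when a library was left out. For the 36 called genes that were recomputed, 519 of 540 values under alternatives kept the call, 21 lost it and none changed sign. For 7 genes without a call, RB1 gained one and 13 of 105 values changed sign, all of CDKN2A, CDKN2C or RBL1. The other genes named, among them CCNA2, CDC6, CDT1, EZH2, TK1 and TSPAN31, were not recomputed singly. With the replicate number as a block, 5 members were called higher and 1 lower, RB1 passing the threshold (log2 fold change 0.095, adjusted p = 0.0483), and 5177 genes were called in all; same-numbered libraries did not deviate together (correlations 0.0868, -0.0377 and -0.0311), so the number is not known to pair them.

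When each library in turn was left out, calls ranged from 3 to 6 among the other G1 to S genes, 4 to 5 among E2F and pocket genes, 5 to 8 among replication genes, 3 to 6 among regulators and 3 to 11 among G2 and M markers; the cause was not tested. The CDK6 share of kinase counts differed by -0.0475 to 1.13 percentage points, reversing without control replicate 1 (-0.0475), and the INK4 ratio by -0.541 to 0.0325, reversing to 0.0263 without control replicate 3 and 0.0325 without SOX2 siRNA replicate 2; the cause was not tested. The CCND1 share differed by -5.32 to -3.81 points. Alternatives for the CCND2 and CCND3 shares, the summed levels and the cyclin to kinase ratio were chosen after seeing the data, and none reversed. With upper-quartile scaling 45.8% of all calls were upward, against 52.4%. Depth limits CDKN2B, at 4 to 15 counts, and the INK4 genes as a whole.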
